A study of Mus musculus with 24 samples.

Results

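The genes described are those of p53 signalling and cell cycle arrest in the mouse kidney: the transcription factor Trp53, its inhibitor Mdm2, the p53 target genes Cdkn1a, Btg2 and Ccng1, the further cyclin-dependent kinase (CDK) inhibitors Cdkn1b, Cdkn1c and Cdkn2b, and the cyclin Ccnd1. They were chosen by name from a list of 10 genes, of which 9 have a row among the 14785 genes of the deposited table. The 10th, Cdkn2a, is not analysed here. RNA was sequenced from kidneys of male C57/BL6 mice that were 8 to 9 weeks old at the start, with 10 animals in each of 6 groups, of which 4 were sequenced. Sham animals had surgery without obstruction. In unilateral ureter obstruction (UUO) the ureter of a kidney is tied off, for 2 days in the group UUO2 and for 7 days in UUO7. In the groups R1W, R2W and R4W the ureter was tied for 7 days, then reimplanted, and the mice recovered for 1, 2 or 4 weeks. The labels give no time after surgery for the sham kidneys, so age at death and recovery time cannot be told apart in comparisons of the recovery groups with sham.

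The protein p53 accumulates when DNA is damaged or a cell is stressed, and it activates genes that stop the cell cycle, repair DNA or trigger cell death. Among them is Mdm2, whose product marks p53 for degradation and so closes a feedback loop. The cell cycle is held before DNA synthesis by inhibitors that bind complexes of CDKs with cyclins: p21 (Cdkn1a), p27 (Cdkn1b) and p57 (Cdkn1c) of the Cip/Kip family, and p15 (Cdkn2b) of the INK4 family. In the injured kidney p21 is known as a marker of arrested or senescent tubule cells, and p57 marks podocytes, the cells that cover the glomerular capillaries.

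A p53 binding site is a pair of decamers, each a 10-base unit, and RefSeq promoter windows (250 bases before to 50 bases after an annotated start, build GRCm38.p6) were searched on both strands for them. Of the listed genes, 8 had a window. A pair of adjacent decamers with at most 1 mismatch was found for Cdkn1a and Ccng1, and in 29 of all 32851 windows, or 0.0883%. Both windows are shown whole because these p53 targets moved in opposite directions in the data below. Capitals mark the pair, which has 1 mismatch in each window. It starts at -51 relative to the annotated start in the Cdkn1a window shown (chr17:29090729-29091028, plus strand). In Ccng1 it starts at -195 relative to the start (window chr11:40755237-40755536, minus strand). A further Cdkn1a window, around another annotated start (chr17:29093519-29093818, plus strand), held no exact decamer, and its closest pair had 5 mismatches.
Cdkn1a: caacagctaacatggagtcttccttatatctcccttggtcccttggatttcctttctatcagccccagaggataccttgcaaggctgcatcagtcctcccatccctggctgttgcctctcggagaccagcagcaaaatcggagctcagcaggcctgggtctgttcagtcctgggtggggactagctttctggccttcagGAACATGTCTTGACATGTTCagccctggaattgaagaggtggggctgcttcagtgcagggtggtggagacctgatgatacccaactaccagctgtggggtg
Ccng1: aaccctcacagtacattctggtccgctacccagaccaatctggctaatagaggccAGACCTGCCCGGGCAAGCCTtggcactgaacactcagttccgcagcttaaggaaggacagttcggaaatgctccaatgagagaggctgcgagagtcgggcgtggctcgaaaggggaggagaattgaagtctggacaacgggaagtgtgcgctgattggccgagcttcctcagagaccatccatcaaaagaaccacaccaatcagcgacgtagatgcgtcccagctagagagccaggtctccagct

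A single exact decamer occurred in 8.36% of all windows, and in 4 of the genes: Cdkn1a, Ccng1, Mdm2 and Trp53. The stretches of 60 bases that hold it in the feedback pair are shown, with the decamer in capitals (Mdm2 at chr10:117710910-117710969, minus strand, and Trp53 at chr11:69580259-69580318, plus strand).
Mdm2: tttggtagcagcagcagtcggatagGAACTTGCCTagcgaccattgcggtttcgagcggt
Trp53: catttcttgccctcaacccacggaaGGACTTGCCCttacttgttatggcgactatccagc
The windows of Btg2 and Cdkn2b held the letters TGACGTCA, the cAMP response element, which 1.79% of all windows hold. It does not overlap a p53 decamer there, and it is in capitals in these stretches (Btg2 at chr1:134079288-134079347 and Cdkn2b at chr4:89311045-89311104, both minus strand).
Btg2: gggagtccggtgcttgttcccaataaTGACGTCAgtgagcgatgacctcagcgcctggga
Cdkn2b: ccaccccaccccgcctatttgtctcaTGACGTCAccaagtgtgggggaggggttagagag
These motifs were chosen after the letters were seen, and a match describes the letters only.

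Cdkn1a, Trp53 and Btg2 were already higher at 2 days of obstruction, though the Btg2 libraries overlapped those of sham. The inhibitors Cdkn1b, Cdkn1c and Cdkn2b were higher at 7 days. After the ureter was reimplanted, Cdkn1a and Trp53 fell from their 7-day levels without returning to those of sham, while Cdkn1c went on to its highest level. Ccng1 and Ccnd1 were lower than sham at 7 days. Levels are in FPKM (fragments per length of transcript and per size of library), the unit inferred for the deposited values, and are relative to the length of each transcript and to the whole library. A gene counts as called where limma, run on log2(FPKM + 1), gave it an adjusted p (Benjamini-Hochberg, over all 14785 genes) under 0.05, and errors of group means are SD over 4 animals.

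Because the levels are shares of a library, a fall of abundant genes lifts the rest. The median gene was higher than sham by 0.42 on the log2 scale at UUO7 and by 0.30 at R4W, and by 0.09 at UUO2. It was higher in UUO7 than in UUO2 by 0.28. Rescaled values, in which each library was divided by its median ratio to the geometric mean over genes, remove this shift and are given beside the deposited ones. The whole-read steps in low values, which give a depth of 24920000 to 35340000 fragments, were seen in the 20 libraries of the other groups and in 0 of the 4 UUO2 libraries. The labels mention 20 libraries in the sequencing run, so for UUO2 a difference in library making and 2 days of obstruction cannot be told apart. Summed proximal tubule markers (8 of 8 with a row, 0 of them at 0 throughout a group) were between 5600 and 6627 FPKM in sham, 1492 and 1922 in UUO7, and 3053 and 4058 in R4W. Macrophage and myeloid markers (8 of 8, none at 0 throughout a group) ran from 40.7 to 64.6 FPKM in sham, 702.3 to 873.2 in UUO7 and 587.6 to 1152 in R4W. In bulk tissue, fewer cells of a type and less RNA per cell cannot be told apart, and the part of the cell mixture in the results was not tested.

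Some libraries stood apart from their group. Sham 2 held summed urothelium markers of 40.0 FPKM against at most 3.12 in the other sham libraries, and adipose markers of 289.3 against at most 48.2 FPKM. UUO2 2 held the most tubule RNA of its group, with a sum of 2279 FPKM for markers of the other nephron segments against at most 1259. R4W 2 is placed at 4 weeks by its title and at 2 weeks by its treatment label, and was grouped by title. Calls that change without any of these libraries are given both ways.

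**Figure D1:**
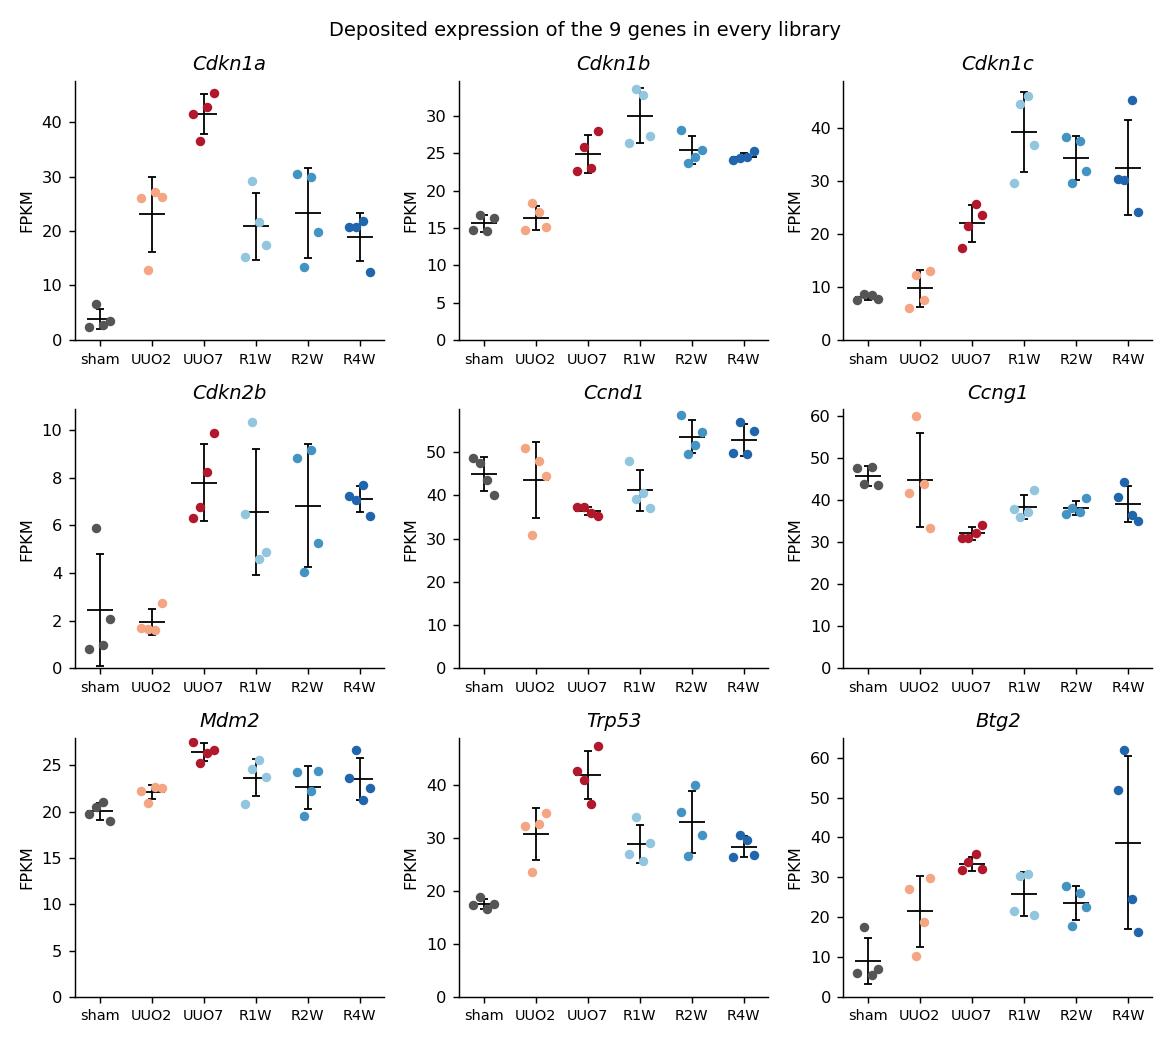
Deposited level in FPKM (vertical axes, from 0) of the 9 genes in the 24 libraries (points, 4 in each of 6 groups), with the group mean as a dash and the SD as a bar. Cdkn1a lies between 2.44 and 6.53 FPKM in sham and between 36.6 and 45.4 in UUO7, Cdkn1c is highest in the recovery groups, and Btg2 divides the R4W libraries into a pair above 51 and a pair below 25 FPKM.

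Trp53 (ENSMUSG00000059552, mm10 chr11:69580359-69591873, plus strand) had 17.3, 18.8, 16.5 and 17.5 FPKM in the 4 sham libraries. At UUO2 it had 32.2, 23.6, 32.6 and 34.7 FPKM, and at UUO7 42.6, 40.8, 36.4 and 47.3 FPKM. No obstructed library overlapped sham, and UUO2 2 was the lowest of its group. The log2 fold change was 0.76 (SE 0.12, adjusted p = 2.66e-05, limma) at 2 days and 1.20 (SE 0.12, adjusted p = 1.5e-08, limma) at 7 days. After rescaling these changes were 0.64 and 0.73, both called. Trp53 rose further from UUO2 to UUO7 by 0.44 in the deposited values (limma adjusted p = 0.00318), but by 0.10 after rescaling (limma adjusted p = 0.411), so its call between the 2 obstruction times was lost.

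During recovery Trp53 stood at 27.0, 33.9, 25.7 and 29.0 FPKM in R1W and at 34.8, 26.5, 40.0 and 30.5 in R2W. In R4W it had 26.4, 30.5, 29.5 and 26.8 FPKM. The R1W and R4W libraries lay wholly below UUO7 and wholly above sham, while R2W overlapped UUO7. Trp53 fell by 0.52 from UUO7 to R1W on the log2 scale (SE 0.12, limma adjusted p = 0.00816), to 28.9 ± 3.60 FPKM, and R4W held 28.3 ± 2.02 FPKM. At R4W it was still 1.61-fold above sham, a log2 fold change of 0.66 (limma adjusted p = 8.25e-05), or 0.30 after rescaling (limma adjusted p = 0.0125). R4W and R1W differed by -0.02 (SE 0.12, limma adjusted p = 0.912).

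Mdm2 (ENSMUSG00000020184, chr10:117688875-117710758, minus strand), the ubiquitin ligase that limits p53, moved little. It had 19.7, 20.5, 21.0 and 18.9 FPKM in sham and 22.3, 21.0, 22.7 and 22.5 in UUO2. UUO7 libraries had 27.5, 25.3, 26.3 and 26.6 FPKM, all above every sham library. Across the recovery groups Mdm2 stayed between 19.5 and 26.6 FPKM, with means of 23.7 for R1W, 22.6 for R2W and 23.5 for R4W. The change at UUO7 was 0.38 in the deposited values (SE 0.08, limma adjusted p = 9.76e-05), below the shift of the median gene, and turned to -0.08 after rescaling (SE 0.07, limma adjusted p = 0.267). At R4W the change against sham was 0.22 (limma adjusted p = 0.0157) and likewise turned to -0.14 on rescaling (limma adjusted p = 0.0687). Without R4W 2 the R4W call was lost even in the deposited values (0.16, limma adjusted p = 0.0781). R4W differed from UUO7 by -0.17 (limma adjusted p = 0.0736), and was called lower without R4W 2 (-0.23, limma adjusted p = 0.0208). The authors' deposited table gives Mdm2 a log2 fold change of -0.00 at UUO7 (adjusted p = 0.996) and of -0.13 at R4W (adjusted p = 0.159). Relative to the median gene, a Mdm2 change at 7 days was not detected, while Trp53 and Cdkn1a were higher under both scalings.

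Cdkn1a (ENSMUSG00000023067, chr17:29090979-29100722, plus strand) encodes p21, the inhibitor through which p53 halts the cell cycle. Its sham libraries had 2.44, 6.53, 2.72 and 3.52 FPKM, the highest being sham 2. The UUO2 libraries had 26.0, 12.8, 27.2 and 26.3 FPKM, and those of UUO7 had 41.5, 36.6, 42.8 and 45.4. The groups did not overlap, and UUO2 2 was the low library at 2 days. Cdkn1a was 6.07-fold above sham at UUO2 (log2 2.34, SE 0.28, limma adjusted p = 1.19e-06) and 10.9-fold above it at UUO7 (log2 3.22, SE 0.28, limma adjusted p = 2.75e-09), the highest of the 9 genes in either comparison. Rescaled changes were 2.26 and 2.80. Without sham 2 the sham mean was 2.89 FPKM and the UUO7 change was 3.46. On the opposite strand, AC167363.2 shares 1046 bases with Cdkn1a in GENCODE M21.

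The 7-day level was 1.80-fold above the 2-day one (log2 0.87, SE 0.28, limma adjusted p = 0.0101), a call that was lost without UUO2 2 (0.63, limma adjusted p = 0.0539) and after rescaling (0.53, limma adjusted p = 0.0772). In recovery Cdkn1a had 15.2, 29.2, 21.6 and 17.4 FPKM in R1W and 30.5, 13.4, 29.9 and 19.9 in R2W. The R4W libraries held 20.8, 20.8, 21.8 and 12.4 FPKM. Every recovery library lay below UUO7 and above sham. Cdkn1a fell by 1.00 on the log2 scale from UUO7 to R1W (SE 0.28, limma adjusted p = 0.0226) and by 1.12 from UUO7 to R4W (SE 0.28, limma adjusted p = 0.0029). The R1W call was lost in 5 of 8 fits that left out a library, those without UUO7 1, UUO7 3, UUO7 4, R1W 1 or R1W 4, where the adjusted p reached at most 0.0738 in limma, whereas the R4W call held in all 8. At R4W Cdkn1a remained 4.98-fold above sham (log2 2.10, limma adjusted p = 2.6e-06, and 1.79 rescaled). In the order of group means, sham at 3.80 FPKM and UUO7 at 41.6 stood apart from all others, and neighbours among R4W (18.9), R1W (20.9), UUO2 (23.1) and R2W (23.4) overlapped.

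The R2W libraries with the higher Cdkn1a, R2W 1 and R2W 3, were also the higher in Trp53 and in Cdkn2b, which had 8.84 and 9.18 FPKM against 4.04 and 5.25 in R2W 2 and 4. Their summed proximal tubule markers were 2215 and 2287 FPKM against 4015 and 3400, and their summed macrophage and myeloid markers 1664 and 1366 against 671.2 and 865.5. The part of that difference between libraries in the gene levels was not tested.

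Btg2 (ENSMUSG00000020423, chr1:134075170-134079120, minus strand) is an antiproliferative p53 target that is also induced early by growth signals. It had 5.94, 17.5, 5.58 and 7.02 FPKM in sham, with sham 2 the highest, and 27.0, 10.1, 18.8 and 29.8 FPKM in UUO2, with UUO2 2 the lowest. Those 2 libraries made the groups overlap, and the change was 1.20 on the log2 scale (SE 0.37, limma adjusted p = 0.01). It was 1.54 without sham 2. In the authors' deposited table the change at UUO2 is 1.17 with an adjusted p of 0.0523. The UUO7 libraries were close together at 31.8, 33.9, 35.8 and 32.2 FPKM, 3.70-fold above sham (log2 1.92, SE 0.37, limma adjusted p = 7.18e-05, and 1.47 rescaled). Without sham 2, the sham mean fell to 6.18 FPKM and the UUO7 change was 2.26.

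Btg2 stayed up in recovery, at 21.5, 30.2, 30.8 and 20.4 FPKM in R1W and 27.9, 17.9, 25.9 and 22.6 in R2W. The R4W libraries spread widely, with 51.8, 62.0, 24.4 and 16.3 FPKM, so that R4W overlapped every other group. R4W was called above sham (log2 1.94, SE 0.37, limma adjusted p = 0.000124), and R4W 4 lay below sham 2. The same pair of R4W libraries was high in the immediate-early genes Fos, with 27.5, 44.5, 4.98 and 2.98 FPKM, and Egr1, with 42.5, 62.4, 14.0 and 7.09. These genes were picked after their values were seen. Among the other 20 libraries Fos was at most 11.4 FPKM and Egr1 at most 30.8. Junb, a further such gene, had 97.3, 103.2, 55.2 and 27.0 FPKM in R4W, where the high pair lay below the 108.2 to 118.5 FPKM of UUO7. R4W 1 also held 1619 FPKM of summed adipose markers (5 of 6 with a row) against 62.1 in R4W 2, and whether either pattern bears on Btg2 was not tested.

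Ccng1 (ENSMUSG00000020326, chr11:40748552-40755311, minus strand) encodes cyclin G1, a p53 target that takes part in the regulation of p53 through Mdm2. It was lower than sham at UUO7 and was not called at UUO2 (-0.06, limma adjusted p = 0.697). Its levels were 47.7, 43.8, 47.9 and 43.8 FPKM in sham and 41.8, 60.2, 43.8 and 33.6 in UUO2, where UUO2 2 was the highest. UUO7 libraries had 31.1, 31.0, 32.3 and 34.2 FPKM, all below sham. Ccng1 fell by 0.50 on the log2 scale at UUO7 (SE 0.11, limma adjusted p = 0.000428), and after rescaling by 0.97 (limma adjusted p = 6.01e-07). From UUO2 to UUO7 it fell by 0.44 (limma adjusted p = 0.00187), or by 0.29 without UUO2 2 (limma adjusted p = 0.00691). In the authors' deposited table its UUO7 change against sham is -1.02 (adjusted p = 3.53e-35).

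Recovery libraries of Ccng1 lay between 35.1 and 44.5 FPKM, above every UUO7 library, with means of 38.4 ± 2.78 for R1W, 38.2 ± 1.67 for R2W and 39.2 ± 4.27 for R4W. The rise from UUO7 to R4W of 0.28 (SE 0.11, limma adjusted p = 0.0489) was at the threshold, and was lost in 6 of 8 fits without a library: any of the 4 in UUO7, R4W 1 or R4W 2, with adjusted p up to 0.15 in limma. Rescaled, it was 0.38 (limma adjusted p = 0.0164). Every R1W and R2W library lay below every sham library, while R4W overlapped sham. In the authors' deposited table the R4W change against sham is -0.61 (adjusted p = 3.42e-10). Against sham, R4W differed by -0.22 (SE 0.11, limma adjusted p = 0.0878) in the deposited values and by -0.59 after rescaling (limma adjusted p = 0.000386), the latter called. Without R4W 2 it was also called in the deposited values (-0.28, limma adjusted p = 0.0468), as it was in fits without the UUO2 group (-0.22, limma adjusted p = 0.0103), on the 2 groups alone (-0.22, limma adjusted p = 0.0322), and with sham 2 and UUO2 2 both left out (-0.24, limma adjusted p = 0.0212).

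**Figure D2:**
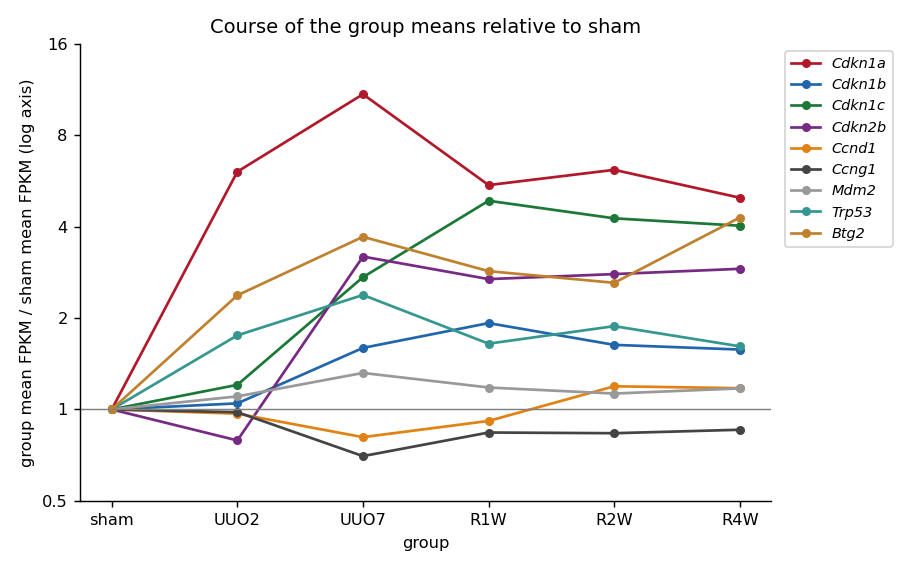
Mean FPKM of each group divided by the sham mean (vertical axis, log scale) for the 9 genes (lines) in the order of the 6 groups (horizontal axis), from deposited values. Cdkn1a and Trp53 peak at UUO7, Cdkn1c peaks at R1W with a ratio of 4.87, and Ccng1 is lowest at UUO7 with a ratio of 0.702.

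Cdkn1b (ENSMUSG00000003031, chr6:134920401-134925513, plus strand) encodes p27, which keeps resting cells out of the cycle. It ranged from 14.6 to 16.7 FPKM in sham and from 14.8 to 18.3 in UUO2, which overlapped (log2 0.06, limma adjusted p = 0.6). At UUO7 it had 22.6, 25.8, 23.0 and 28.0 FPKM, above every sham library. R1W held its highest mean, 30.0 ± 3.70 FPKM, and the R2W and R4W means were 25.4 ± 1.88 and 24.6 ± 0.522. The rise at UUO7 was 0.64 (SE 0.09, limma adjusted p = 9.72e-07), and 0.18 after rescaling (SE 0.07, limma adjusted p = 0.0361), a call that was lost with sham 2 left out as well (limma adjusted p = 0.0563). R4W was above sham by 0.63, and by 0.27 rescaled (limma adjusted p = 0.00336).

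Between UUO7 and R1W Cdkn1b rose by 0.26 (SE 0.09, limma adjusted p = 0.0487), and it fell by 0.27 from R1W to R4W (SE 0.09, limma adjusted p = 0.0344). Each of these calls was lost in 6 of 8 fits that left out a library. For the rise they were the fits without UUO7 1, 2 or 3 or R1W 2, 3 or 4 (limma adjusted p up to 0.143). For the fall they were those without R1W 2 or 3 or any R4W library (limma adjusted p up to 0.139). On rescaling the rise was 0.29 and still called (limma adjusted p = 0.0125), while the call of the fall was lost (-0.20, limma adjusted p = 0.0585).

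Cdkn1c (ENSMUSG00000037664, chr7:143458339-143461050, minus strand), encoding p57, had 7.50, 8.62, 8.49 and 7.64 FPKM in sham. At UUO2 it divided into 6.03 and 7.55 FPKM in libraries 1 and 3 and 12.3 and 12.9 in libraries 2 and 4, overlapping sham. UUO7 had 17.3, 21.5, 25.7 and 23.5 FPKM. Every UUO7 library exceeded every sham and UUO2 library, by 1.33 on the log2 scale against sham (SE 0.20, limma adjusted p = 3.87e-06, and 0.88 rescaled) and by 1.15 against UUO2 (SE 0.20, limma adjusted p = 4.19e-05).

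Cdkn1c was called above UUO7 at both 1 and 4 weeks of recovery, and whether it differed in this from the other inhibitors was not tested. R1W libraries had 29.7, 44.6, 46.1 and 36.7 FPKM, above all of UUO7, and the rise was 0.80 (SE 0.20, limma adjusted p = 0.0122), called in all 8 fits without a library. R2W had 38.3, 29.7, 37.5 and 31.9 FPKM, and R4W 30.4, 30.2, 45.2 and 24.2. R4W overlapped UUO7 and exceeded it by 0.52 (SE 0.20, limma adjusted p = 0.0374). This call was lost without UUO7 1, UUO7 2, R4W 1, R4W 2 or R4W 3, with an adjusted p up to 0.155 in limma. Rescaled, the R4W change from UUO7 was 0.62 (limma adjusted p = 0.0106), and the libraries did not overlap. Against sham, R4W was 4.03-fold higher (log2 1.85, SE 0.20, limma adjusted p = 1.52e-07, and 1.51 rescaled). Summed podocyte markers (the 4 genes Nphs1, Podxl, Wt1 and Synpo, none at 0 throughout a group) ran from 34.4 to 40.5 FPKM in sham, 18.5 to 35.9 in UUO2, 73.3 to 86.1 in UUO7 and 72.7 to 81.5 in R1W. They ran from 86.9 to 117.4 FPKM in R2W and from 97.8 to 142.5 in R4W. Within UUO2 and R4W the libraries had the same order in these sums as in Cdkn1c, and within sham, UUO7 and R2W they did not. In R1W the orders matched for these 4 markers, which were chosen after the data were seen, but not for the full podocyte list. R1W sums overlapped those of UUO7, while its Cdkn1c levels did not. The part of these markers in the Cdkn1c result was not tested. A GENCODE M21 antisense gene, Gm44732, shares 892 bases with Cdkn1c, and whether counting used strand is not given in the sources used here.

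Cdkn2b (ENSMUSG00000073802, chr4:89306289-89311032, minus strand) encodes p15, an INK4 inhibitor of CDK4 and CDK6 that TGF-beta induces in epithelium. It was the least expressed of the 9 genes per length, with 0.83, 5.90, 0.99 and 2.06 FPKM in sham and 1.71, 1.66, 1.61 and 2.75 in UUO2. The lowest value, in sham 1, corresponds to about 33 fragments. UUO7 libraries had 6.29, 6.78, 8.25 and 9.87 FPKM. All were above sham 2, the highest sham library. The change at UUO2 was -0.03 (SE 0.32, limma adjusted p = 0.947) and at UUO7 1.55 (SE 0.32, limma adjusted p = 0.000144), with 1.20 after rescaling, when sham 2 overlapped UUO7. Without sham 2 the sham mean fell from 2.44 ± 2.37 to 1.29 ± 0.669 FPKM, the UUO7 change was 1.96, and the UUO2 change turned to 0.38 (limma adjusted p = 0.234), not called. In the authors' deposited table the change at UUO7 is 1.21 with an adjusted p of 0.0764.

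Cdkn2b had no called change from UUO7 at R1W or R4W, and R2W was not tested. R1W libraries had 6.47, 10.3, 4.58 and 4.89 FPKM, and those of R4W 7.24, 7.08, 7.69 and 6.41. R2W lay at 8.84, 4.04, 9.18 and 5.25 FPKM, and each of these groups overlapped UUO7. R4W differed from UUO7 by -0.10 (SE 0.32, limma adjusted p = 0.808) and from sham by 1.45 (SE 0.32, limma adjusted p = 0.000493), or by 1.86 without sham 2. Whether the courses of Cdkn1a and Cdkn2b differ was not tested.

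Ccnd1 (ENSMUSG00000070348, chr7:144929931-144939925, minus strand) encodes cyclin D1, the partner of CDK4 and CDK6 that the INK4 inhibitors oppose. It was at 48.8, 47.5, 43.6 and 40.1 FPKM in sham and 51.0, 30.9, 47.9 and 44.4 in UUO2. UUO7 libraries lay in the narrow range of 35.4 to 37.3 FPKM, below all of sham. The log2 change was -0.29 (SE 0.11, limma adjusted p = 0.0228), a call lost without sham 1 (limma adjusted p = 0.0683) or sham 2 (limma adjusted p = 0.0562). Rescaling took it to -0.77 (limma adjusted p = 4.77e-06). From UUO2 to UUO7 the difference was -0.23 (limma adjusted p = 0.0812), called without UUO2 2 (-0.38, limma adjusted p = 0.000639) and on rescaling (-0.57, limma adjusted p = 0.000239).

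Ccnd1 had 48.0, 39.3, 40.5 and 37.1 FPKM in R1W and 58.5, 49.6, 51.7 and 54.6 in R2W. Its R4W levels were 49.9, 56.9, 49.7 and 54.8 FPKM. Every R2W and R4W library was above every sham and UUO7 library. R4W exceeded UUO7 by 0.52 (SE 0.11, limma adjusted p = 0.000843) and R1W by 0.35 (SE 0.11, limma adjusted p = 0.0339). The latter call was lost without R1W 2, 3 or 4 or R4W 1, 2 or 4, with an adjusted p up to 0.0974 in limma. Against sham, R4W differed by 0.23 in the deposited values (SE 0.11, limma adjusted p = 0.0782) and by -0.14 after rescaling (limma adjusted p = 0.304), so no direction against sham holds under both scalings. The deposited values gave a call in fits without the UUO2 group (0.23, limma adjusted p = 0.0166), on the 2 groups alone (0.23, limma adjusted p = 0.0228), and with sham 2 and UUO2 2 both left out (0.26, limma adjusted p = 0.0126). On the opposite strand, LTO1 shares 1771 bases with Ccnd1 in GENCODE M21.

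**Figure D3:**
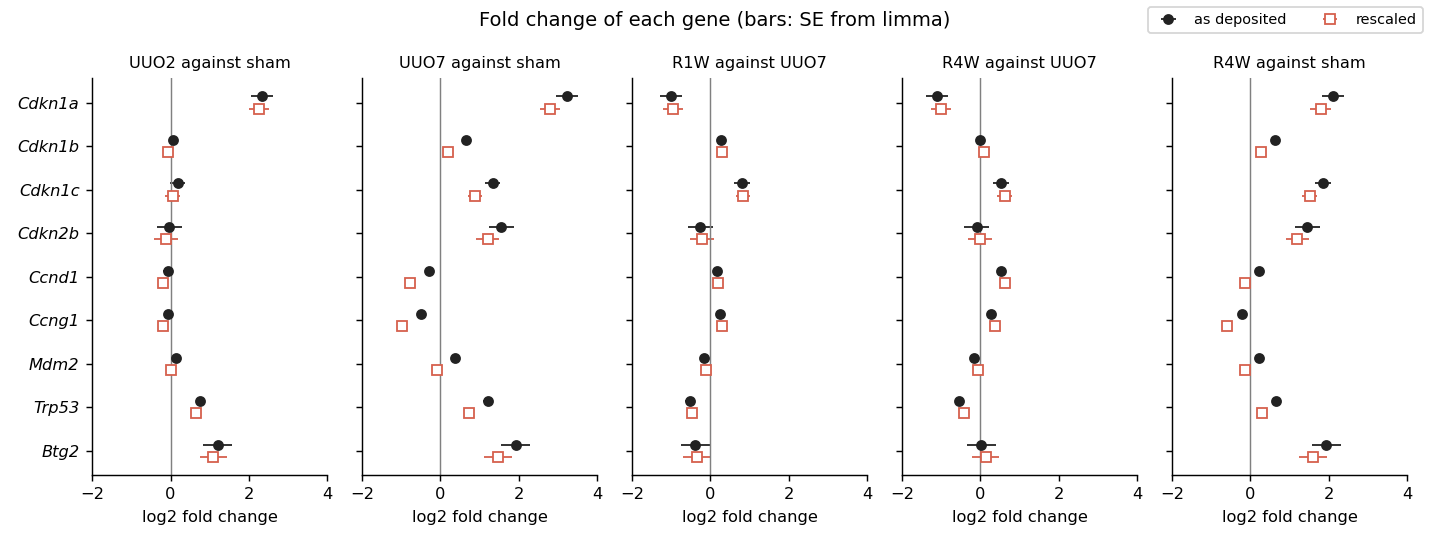
Log2 fold change on log2(FPKM + 1) (horizontal axis) with limma's SE (bars) of the 9 genes in 5 comparisons (panels), from deposited values (filled circles) and rescaled values (open squares). Cdkn1a has the highest value in both comparisons of obstruction with sham, and Mdm2 is above 0 at UUO7 in deposited values (0.38) and below it after rescaling (-0.08).

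Counted together, 3 of the 9 genes were called higher at UUO2 against sham (Cdkn1a, Trp53 and Btg2) and 0 lower, where limma called 32.3% of all genes higher and 17% lower. Rescaling left these counts at 3 and 0, against 25.3% and 25.5%. At UUO7 against sham 7 were called higher and 2 lower, against 60.1% and 17.8% of all genes. Most genes of the table were thus called higher too, and 7 in 9 is not far from that background. The median log2 fold change was 1.20 over the 9 genes and 0.42 over all genes. After rescaling 6 were higher and 2 lower, where 36.5% of all genes were called in either direction. Between UUO2 and UUO7, 6 were higher and 1 lower, against 52% and 14.7%, and after rescaling 3 and 2, against 30% and 31.9%.

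On recovery, 2 genes were higher in R1W than in UUO7 (Cdkn1b and Cdkn1c) and 2 lower (Cdkn1a and Trp53), against 6.47% and 8.04% of all genes. The same counts, 2 and 2, followed rescaling, against 7.26% and 7.14%. From R1W to R4W, 1 was higher (Ccnd1) and 1 lower (Cdkn1b), against 5.06% and 14.1%, and after rescaling 1 and 0, against 8.67% and 8.6%. R4W against UUO7 had 3 higher (Cdkn1c, Ccnd1 and Ccng1) and 2 lower (Cdkn1a and Trp53), against 17.6% and 30.8%. Rescaled values also gave 3 and 2, against 25.1% and 23.2%. R4W was above sham for 7 genes and below it for 0 (8 and 1 in fits without UUO2 or on the 2 groups alone), against 54.8% and 11.6%, and after rescaling for 6 above and 1 below (Ccng1), against 28.9% and 31.1%. Comparisons that share the sham or the UUO7 libraries are not independent of each other.

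Related genes were read from lists chosen with earlier results known. At UUO7 against sham, 14 of 23 further p53 targets listed under arrest and DNA repair rose and 2 fell. The median log2 fold change of the 23 was 0.88 against 0.42 for all genes, and after rescaling 12 rose and 4 fell. Of all genes 60.1% were called higher and 17.8% lower, and 36.5% in either direction after rescaling, so the share called in the deposited values is near the background. Sfn, encoding 14-3-3 sigma, which holds cells before mitosis, had 3.08, 9.35, 3.73 and 4.47 FPKM in sham and 68.8, 67.0, 74.2 and 69.6 in UUO7 (log2 3.62, limma adjusted p = 9.19e-10). Gdf15, a secreted stress cytokine, went from 7.97 ± 3.07 to 53.1 ± 12.5 FPKM (log2 2.62, limma adjusted p = 1.11e-05). The targets that fell were Dcxr, a carbonyl reductase abundant in the kidney, from 265.7 ± 13.0 to 85.7 ± 3.63 FPKM (log2 -1.62, limma adjusted p = 5.49e-08), and Rrm2b, a ribonucleotide reductase subunit (log2 -0.74, limma adjusted p = 2.31e-05). Dcxr and Rrm2b, like Ccng1, were called lower at UUO7 under both scalings.

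Of the p53 targets that act in cell death 14 of 15 had a row, and 12 rose and 1 fell at UUO7 (10 and 2 after rescaling), with a median of 1.19. Pmaip1, the BH3-only protein Noxa, went from 2.98 ± 0.663 to 22.6 ± 2.67 FPKM (log2 2.58, limma adjusted p = 6.62e-09), and Trp53i11 changed by 2.94 (limma adjusted p = 1.06e-08). Ei24 fell by 0.18 (limma adjusted p = 0.00373). At R4W against UUO7, 1 of these 14 rose and 10 fell, and at R4W against sham 10 rose and 0 fell (9 and 4 after rescaling). The shares of all genes called higher and lower were 60.1% and 17.8% at UUO7 against sham, 17.6% and 30.8% at R4W against UUO7, and 54.8% and 11.6% at R4W against sham (28.9% and 31.1% after rescaling).

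Of the regulators of p53, 13 of 18 with a row rose and 1 fell at UUO7, against 60.1% and 17.8% of all genes, with a median of 0.44 against 0.42. After rescaling 4 rose and 7 fell, against 36.5% of all genes in either direction. Rpl5, a ribosomal protein that binds Mdm2, rose by 1.03 (limma adjusted p = 9.26e-08, and 0.56 rescaled) and the checkpoint kinase gene Chek1 by 0.95 (limma adjusted p = 1.72e-05). Hipk2, a kinase that phosphorylates p53, fell from 4.43 ± 0.797 to 1.61 ± 0.210 FPKM (log2 -1.05, limma adjusted p = 5.7e-07) and was at 3.21 ± 0.316 in R4W.

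The 3 further CDK inhibitor genes with a row were called higher than sham at UUO2 as well as at UUO7, with a median log2 fold change of 0.78 at UUO2 (0.66 rescaled). Between UUO2 and UUO7 their median difference was 0.01 with 1 gene called higher, and -0.32 with 1 called lower after rescaling. Over all genes that median was 0.28, with 52% called higher and 14.7% lower (30% and 31.9% after rescaling). Cdkn2d, encoding the INK4 protein p19, had 5.74, 6.04, 4.94 and 6.03 FPKM in sham and 12.4, 13.6, 14.6 and 12.8 in UUO7 (log2 1.10, limma adjusted p = 5.8e-09). Cdkn3, a phosphatase that acts on CDKs and whose RNA is high in dividing cells, was between 0.67 and 0.82 FPKM in sham, between 4.09 and 10.5 in UUO2 and between 4.33 and 8.78 in UUO7 (log2 2.13 at UUO7, limma adjusted p = 9.29e-09). All 3 genes of that list, which also holds Cdkn2c, were called higher at UUO2 and UUO7 under both scalings, where 32.3% of all genes were called higher at UUO2 (25.3% rescaled) and 60.1% at UUO7 (36.5% rescaled). Of the BTG and TOB family, relatives of Btg2, Btg1 and Btg3 rose by 1.60 and 0.88, and Tob1 and Tob2 fell, with log2 changes of -0.85 and -0.35 (limma adjusted p at most 0.0223 for the 4 genes).

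Genes of the cycle itself were higher in obstruction as well. All 17 S phase and mitosis genes with a row (of 18 listed) rose at UUO2 and at UUO7, under both scalings at UUO7, and all 17 fell from UUO7 to R4W, while 16 were still above sham at R4W. Of all genes 32.3% were called higher at UUO2 and 60.1% at UUO7, 30.8% were called lower at R4W against UUO7, and 54.8% higher at R4W against sham. Top2a, a topoisomerase of dividing cells, had 0.90, 1.55, 1.48 and 1.30 FPKM in sham, 19.7, 23.1, 27.2 and 22.0 in UUO7, and 6.13, 8.01, 7.61 and 3.35 in R4W (log2 3.38 at UUO7, limma adjusted p = 1.57e-10). The mitotic kinase gene Cdk1 rose by 3.00 (limma adjusted p = 2.06e-10). Of the G1 cyclins, CDKs, RB and E2F genes 17 of 22 rose and 1 fell at UUO7, with a median of 0.46, near that of all genes, and after rescaling 9 rose and 5 fell, against 60.1% and 17.8% of all genes and 36.5% in either direction after rescaling. Cdk4, the kinase that binds cyclin D1, went from 59.0 ± 2.63 FPKM in sham to 226 ± 29.6 in UUO7 (log2 1.91, limma adjusted p = 4.86e-10, and 1.43 rescaled), where Ccnd1 fell. Cks1b, a CDK subunit needed for the degradation of p27, rose by 2.75 (limma adjusted p = 1.28e-09), and Rbl2, the RB relative of resting cells, fell by 0.43 (limma adjusted p = 0.00627).

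Senescence-associated genes rose in 14 of 16 cases with a row (of 18 listed) at UUO7 and 1 fell, with a median of 2.08, and after rescaling 13 rose and 1 fell, where 60.1% of all genes were called higher, and 36.5% after rescaling. Many of the genes listed encode secreted proteins that injured tissue makes in general. Timp1, an inhibitor of matrix proteases, went from 0.838 ± 0.667 FPKM in sham to 103.5 ± 13.1 in UUO7 (log2 5.88, limma adjusted p = 5.46e-11), and the chemokine gene Cxcl1 rose by 4.94 (limma adjusted p = 3.43e-09). Glb1, which encodes the beta-galactosidase whose activity is stained as a senescence marker, fell from 87.2 ± 5.96 to 49.5 ± 2.87 FPKM (log2 -0.80, limma adjusted p = 6.74e-07). From UUO7 to R4W 12 of the 16 fell and 0 rose, where 30.8% of all genes were called lower, and at R4W 11 were above sham and 1 below it, where 54.8% were called higher.

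**Figure D4:**
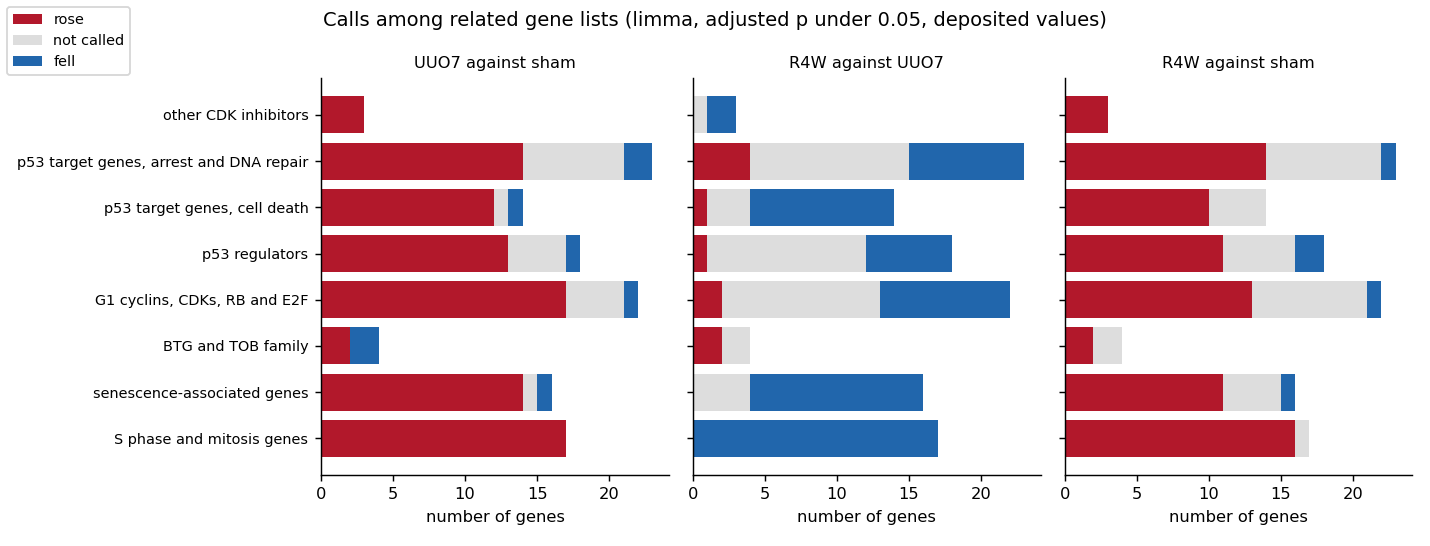
Number of genes (horizontal axis) of each list (bars) that rose, fell or were not called in 3 comparisons (panels), in deposited values. The 17 S phase and mitosis genes all rose at UUO7 and all fell from UUO7 to R4W, under both scalings, whereas the 13 rises among 18 p53 regulators at UUO7 became 4 rises and 7 falls after rescaling.

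Over the 24 libraries, the levels closest to Cdkn1a among 7746 genes averaging 10 FPKM or more were those of Gnb1 (Pearson's r 0.988), Tes (0.986), Nfkb2 (0.983), Vat1 (0.982) and Plp2 (0.982), on log2(FPKM + 1). Their group means had the same order in part: Nfkb2 went from 6.10 FPKM in sham to 26.4 in UUO2 and 39.9 in UUO7, and was at 20.0 in R4W. Trp53 was at rank 85 (r 0.954), Btg2 at rank 1178 (r 0.842) and Mdm2 at rank 2085 (r 0.763). Cdkn1b (r 0.566) and Cdkn1c (r 0.515) followed Cdkn1a less closely. Ccnd1 had an r of -0.125 and Ccng1 of -0.651. These values describe 24 libraries that share 6 group means, and libraries of a group share their treatment and cell mixture.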

How the data were processed

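RNA of 24 mouse kidneys (6 groups of 4) was sequenced after selection of polyA RNA, per the labels' protocols. The authors deposited normalized values of 14785 genes in 1 table. No unit is named per the file headers, and FPKM was inferred from the values: the columns sum to between 717415 and 830179, and low values step by whole reads relative to transcript length. The submitters' processing notes name FastQC, RSEM, Bowtie2 and DESeq2 and the build mm10. The same table holds the authors' log2 fold changes and adjusted p-values for 15 comparisons, deposited without the test named per the file headers, and their base and direction were inferred from the sample columns. The lowest gene mean is 1 FPKM, so genes of lower mean are not analysed here. Coordinates are those of the deposited table.

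The test was limma (version 3.58.1, under R 4.3.3, with a trended prior), fitted to log2(FPKM + 1) with a coefficient for each group and all 24 libraries together, and Benjamini-Hochberg adjustment covered all genes. A pseudocount of 1 understates changes of low genes. A gene was called at an adjusted p under 0.05. Rescaled values used 14402 genes above 0 in every library. The genes, lists and motifs were chosen with earlier results of these data known. All 9 genes with a row are named, and of each related list up to 2 called genes of highest and of lowest log2 fold change at UUO7 against sham, plus the 5 genes most like Cdkn1a. Groups came from the sample titles. Libraries are from separate animals per the labels. Figures were drawn with Python 3.11.15 and matplotlib 3.10.9. Alternatives were the scaling, a filter at a mean of 5 FPKM, pseudocounts of 10 and 0.1, R4W 2 placed in R2W, fits without UUO2 or on only 2 groups, stricter calls, a replicate block and leaving out each library. Leaving out sham 2 together with UUO2 2, or with rescaling, was added after the data were seen. Podocyte sums cover 4 markers, chosen after the data were seen, and 1 item of the marker lists is not reported here.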

Additional observations from a re-analysis of the deposited data

Results flagged for a closer look

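In 4 of 54 groups of 4 libraries a single library stood further from the rest than Dixon's 95% limit, where chance gives about 2.7. Cdkn1a was at 12.8 FPKM in UUO2 2 against 26.0 to 27.2 in the other UUO2 libraries. UUO2 2 also had the highest summed markers of the tubule segments in its group. Cdkn1a was at 12.4 FPKM in R4W 4 against 20.8 to 21.8 in its group, a library whose macrophage and myeloid sum of 587.6 FPKM was the lowest of R4W. Cdkn2b was at 2.75 FPKM in UUO2 4 against 1.61 to 1.71. Btg2 was at 17.5 FPKM in sham 2 against 5.58 to 7.02, the sham library with the urothelium and adipose RNA. Whether these marker levels bear on the gene levels was not tested.

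Ccnd1 lay on opposite sides of sham at different times. Its mean was 36.4 FPKM at UUO7, where every library was below every sham library, and 53.6 at R2W and 52.8 at R4W, where every library was above. The difference between R4W and UUO7 was called (0.52, limma adjusted p = 0.000843), while R2W was not tested. After rescaling, the R4W difference from sham turned to -0.14, and the R2W mean of 50.2 was likewise below the sham mean of 55.3.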

How the results depend on the processing

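Requiring a log2 fold change of 1 or more in size left 5 of the 9 called genes at UUO7 against sham, 2 at UUO7 against UUO2, 0 at R1W against UUO7, 0 at R4W against R1W, 1 at R4W against UUO7 and 4 at R4W against sham. An adjusted p under 0.01 left 1 at R1W against UUO7, 0 at R4W against R1W and 3 at R4W against UUO7. From R1W to R4W, 1 gene was called after rescaling, 0 in a fit on the 2 groups alone and 0 with R4W 2 placed in R2W. Wherever the count was 0, limma gave an unadjusted p under 0.05 for 5 genes at R1W against UUO7 and for 2 at R4W against R1W. Leaving out each library in turn gave 2 to 3 called genes at R1W against UUO7, 0 to 2 at R4W against R1W and 3 to 5 at R4W against UUO7. Such fits hold fewer samples, and the cause of the other differences was not tested. Mdm2 changed sign on rescaling, to -0.08 at UUO7 against sham (-0.10 with sham 2 left out as well), -0.09 at UUO7 against UUO2 and -0.14 at R4W against sham (-0.16 with sham 2 left out). Ccnd1 changed sign likewise at R4W against sham, to -0.14 (-0.15 with sham 2 left out). The other 102 counts of called genes stayed within 1.5 times. Of the fold changes of single genes called in at least 1 fit, 675 kept their direction and side of the threshold, 87 lost the call and 18 gained it. Replicate numbers recur in all groups, but same-numbered animals did not deviate together in every pair (mean correlation at most 0.148). With a replicate block the called genes numbered 3 at UUO2 against sham, 9 at UUO7 against sham, 7 at UUO7 against UUO2, 3 at R1W against UUO7, 2 at R4W against R1W, 4 at R4W against UUO7 and 7 at R4W against sham. For Cdkn2b, about 33 fragments in the lowest library limit the precision.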
